A study of Mus musculus with 6 samples.

Results

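The expression of 7 regulators of mRNA decay was followed across peripheral iNKT cells: the AU-rich element binding proteins Zfp36, Zfp36l1 and Zfp36l2, the antiproliferative factors Btg1 and Btg2, and the RNA-cleaving protein Zc3h12a (Regnase-1) with its relative Zc3h12d. They were chosen by gene symbol, and all 7 were among the 27998 genes listed for each library. The data were scRNA-seq profiles of invariant natural killer T (iNKT) cells, T cells that see lipids presented by CD1d. They came from the liver, the spleen and lymph nodes of wild-type (WT) C57BL/6 mice aged 5 weeks. Each of the 3 organs had 2 libraries, made from cells that had been cleared of CD8+ and B220+ cells and then sorted as TCR-β+ and CD1d tetramer+. No group carried a treatment or an engineered allele. The labels give neither the number of mice behind a library nor their sex, and they name the molecule as nuclear RNA. The study describes the paired libraries as biological repeats, but no label names separate animals, so p-values measure the spread between these libraries.

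In T cells, the lifetime of an mRNA is set in large part by proteins that bind its 3′ untranslated region (UTR). ZFP36 family proteins bind AU-rich elements and bring the CCR4-NOT deadenylase to mRNAs of cytokines and of early response genes, and Zfp36 and Btg2 are themselves known as early response genes. BTG and TOB proteins link the CCR4-NOT deadenylases to target mRNAs or to the poly(A)-binding protein, and BTG1 and BTG2 are known to help keep T cells quiescent. Regnase-1, the product of Zc3h12a, cleaves stem-loops in mRNAs such as those of Icos and Il2, and MALT1 cleaves Regnase-1 after T cell receptor stimulation.

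The mRNAs of the ZFP36 family carry the same kind of element that their proteins bind. The motif TATTTAT (read with U in place of T in the mRNA) was searched on the transcript strand of the 3′ UTR of each member in the GENCODE vM21 annotation (GRCm38). Zfp36 held 3 motifs in a UTR of 774 bases, a number reached by 0.910% of the 1319 tested genes whose UTR had a like length (0.8 to 1.25 times). Zfp36l1 held 3 in 1835 bases, as many as 3.79% of 1504 genes of like length, and Zfp36l2 held 3 in 1822 bases, as many as 3.69% of 1491 genes. Btg2 held 1 in 2199 bases, and 42.7% of genes of like length held at least 1. The UTRs of Btg1 (4166 bases), Zc3h12a (856 bases) and Zc3h12d (2327 bases) did not hold these letters. Of the 9753 tested genes with an annotated 3′ UTR, 28.6% held the motif and 3.55% held it 3 or more times. The first site of each gene is printed so that the repeated element can be read in its sequence. The motif is in capitals, the letters are those of the mRNA strand written as DNA, and all of these genes lie on the minus strand.
Zfp36, chr7:28376965-28376994: agtgggcccttTATTTATgacgactttatt
Zfp36l1, chr12:80108421-80108450: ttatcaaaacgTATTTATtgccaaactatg
Zfp36l2, chr17:84184913-84184942: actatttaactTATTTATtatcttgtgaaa
Btg2, chr1:134077248-134077277: aaatgaagagcTATTTATacatgttttttt

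The promoters of 6 members were read from RefSeq windows of 300 bases (250 before to 50 after the start; assembly GRCm38.p6), and Zfp36l2 was not among these windows. Both strands were searched for the CArG box and the NF-kB site (by name), the cAMP response element TGACGTCA, the AP-1 site TGANTCA and the FoxO site TGTTTAC, and no matches overlapped. Zfp36 held a CArG box, the site of serum response factor, at positions -58 to -49 from the start, a motif found in 1.63% of all 32851 windows. Btg2 held a cAMP response element at -166 to -159 (1.79% of windows). Zfp36l1 held an AP-1 site at -129 to -123 (7.81% of windows), and Btg1 a FoxO site at -204 to -198 (3.65% of windows). The NF-kB site was in 4.51% of windows and in none of the 6, and Zc3h12a and Zc3h12d held no match to these letters. A match is only a description of the sequence. The 250 bases before the start are printed for the members that differed from lymph node in both liver and spleen and held a motif, with the motif in capitals, 5′ to 3′ on the strand of the gene (minus in each case).
Zfp36, chr7:28379229-28379478: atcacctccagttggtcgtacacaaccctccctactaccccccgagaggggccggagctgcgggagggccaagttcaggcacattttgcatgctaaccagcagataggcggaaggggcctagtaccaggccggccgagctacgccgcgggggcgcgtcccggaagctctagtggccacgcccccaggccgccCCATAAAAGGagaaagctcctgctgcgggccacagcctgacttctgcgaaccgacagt
Zfp36l1, chr12:80113014-80113263: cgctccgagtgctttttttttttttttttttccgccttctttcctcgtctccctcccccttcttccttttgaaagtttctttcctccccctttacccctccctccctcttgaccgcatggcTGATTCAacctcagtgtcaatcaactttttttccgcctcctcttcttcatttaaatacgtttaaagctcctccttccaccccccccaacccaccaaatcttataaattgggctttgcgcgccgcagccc
Btg2, chr1:134079156-134079405: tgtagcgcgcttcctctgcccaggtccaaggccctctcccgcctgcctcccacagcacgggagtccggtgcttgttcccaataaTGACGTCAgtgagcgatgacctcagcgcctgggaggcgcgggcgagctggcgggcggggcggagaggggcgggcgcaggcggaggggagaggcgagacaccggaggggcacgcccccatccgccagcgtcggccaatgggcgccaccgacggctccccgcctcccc

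The libraries held between 4768016 and 11086603 UMIs (unique molecular identifiers, each standing for 1 captured transcript), and 16532 of 16587 barcodes were kept. Any pair of libraries shared between 6 and 20 barcodes. T cell identity was present in every library, with Cd3e at 632 to 1165 CPM and Zbtb16 (PLZF, the transcription factor of the iNKT lineage) at 72.1 to 101 CPM, while Cd8a was at 4.69 CPM or below. CPM here means UMIs per 1000000 UMIs of a library, with ribosomal and haemoglobin genes left out. The B and myeloid marker lists summed to 16.2 and 21.0 CPM or less, except that the myeloid list reached 109 CPM in lymph node replicate 2, nearly all of it Lyz2. Lymph node libraries stood apart from the others in a pair of ways that touch every comparison with lymph node. They held no Xist UMI and 1365 and 1582 UMIs of Y-linked genes, whereas liver and spleen libraries held Xist and no Y-linked UMI, so lymph node and the sex of the mice cannot be told apart. Their 10 immediate early genes, which are induced within minutes of stimulation or handling, summed to 7407 and 7967 CPM, against 859 and 858 CPM in liver and 1552 and 1264 CPM in spleen. Sums over a library also cannot tell a change in the make-up of the cells from a change in RNA per cell.

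Zfp36 (tristetraprolin; ENSMUSG00000044786, chr7:28376784-28380253, minus strand) showed the widest contrast between organs of the 7 members. Its level was 39.1 and 48.7 CPM in the liver libraries, 47.3 and 36.1 CPM in the spleen libraries and 154.5 and 125.8 CPM in the lymph node libraries. The lymph node mean was 3.19-fold the liver mean and 3.36-fold the spleen mean, and liver and spleen overlapped. In edgeR's quasi-likelihood test with Benjamini-Hochberg adjustment, Zfp36 was lower in liver than in lymph node (log2 fold change -1.74, SE 0.147, adjusted p = 1.53e-10) and lower in spleen than in lymph node (-1.73, SE 0.155, adjusted p = 1.13e-09). Liver and spleen differed by -0.01 (edgeR adjusted p = 0.975), and the sign of that value turned with the scaling. After thinning each cell to 1000 UMIs, a Zfp36 UMI was found in 2.39% and 3.09% of liver cells, 3.06% and 2.05% of spleen cells, and 10.6% and 8.86% of lymph node cells. Without thinning, 9.18% of cells in liver replicate 1 had one, at the median depth of 3592 UMIs. The 95% exact binomial intervals of these shares had half-widths of at most 2.02 percentage points over all members, for counting error only. No cell type without these transcripts was in the sort, so the share that free RNA gives was not measured.

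Zfp36l1 (ENSMUSG00000021127, chr12:80107754-80113013, minus strand), the family member known to restrain proliferation in developing lymphocytes, gave tight replicates. It was at 160.8 and 158.0 CPM in liver, 177.0 and 184.2 CPM in spleen, and 408.7 and 420.1 CPM in lymph node. The gap between lymph node and the other organs was far wider than the spread of either pair of libraries. edgeR put it at -1.44 for liver against lymph node (SE 0.112, adjusted p = 2.48e-12) and at -1.18 for spleen against lymph node (SE 0.114, adjusted p = 7.86e-10). The liver pair also lay below the spleen pair, by a log2 fold change of -0.26 that was not called (edgeR adjusted p = 0.0907). The antisense gene Gm26669 overlaps Zfp36l1 and held 127 UMIs in all, and the sources used here do not say whether counting used the strand.

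Zfp36l2 (ENSMUSG00000045817, chr17:84183931-84187947, minus strand), which acts with Zfp36l1 in lymphocyte development, was the member with the least stable replicates. The liver libraries were at 584.7 and 289.2 CPM, the spleen libraries at 363.6 and 317.8 CPM and the lymph node libraries at 591.0 and 826.1 CPM. Both lymph node libraries were above the other 4, but by a margin of 591.0 against 584.7 CPM, so liver replicate 1 and lymph node replicate 1 were nearly level. None of its organ differences was called by edgeR: liver against lymph node -0.76 (SE 0.409, adjusted p = 0.248), spleen against lymph node -1.04 (SE 0.416, adjusted p = 0.226), and liver against spleen 0.27 (adjusted p = 0.696). These values rest on the liver libraries. Without liver replicate 1, Zfp36l2 was called lower in both liver (-1.32) and spleen (-1.04) than in lymph node, and the call for spleen was also made without liver replicate 2 or with liver left out entirely. Without liver replicate 2, it was called 0.69 higher in liver than in spleen. For liver against lymph node the value was then -0.36, and it was -0.51 without lymph node replicate 2, neither of them called.

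Btg1 (ENSMUSG00000036478, chr10:96617006-96622809, plus strand) was the only member with a called difference between liver and spleen in the fit over all cells. It was at 1375 and 1180 CPM in liver, 2130 and 1877 CPM in spleen, and 2633 and 2412 CPM in lymph node. The 3 organs formed 3 separate steps, with the spleen mean 1.57-fold the liver mean and the lymph node mean 1.26-fold the spleen mean. edgeR called it lower in liver than in spleen (-0.73, SE 0.12, adjusted p = 5.18e-05) and lower in liver than in lymph node (-1.04, SE 0.124, adjusted p = 3.38e-08). Spleen and lymph node differed by -0.32, which narrowly missed the threshold (edgeR adjusted p = 0.0740) and passed it when liver was left out (adjusted p = 0.0429), without either liver library and with library totals as the only scaling (0.0376). At 1000 UMIs per cell a Btg1 UMI was found in 57.6% and 54.3% of liver cells, 75.7% and 71.4% of spleen cells, and 80.5% and 77.4% of lymph node cells. The copies Btg1-ps1 and Btg1-ps2 had no UMI in any library.

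Btg2 (ENSMUSG00000020423, chr1:134075170-134079120, minus strand), a target of p53 and of many stimuli, did not follow Btg1 between liver and spleen. Its levels were 299.8 and 299.2 CPM in liver, 340.2 and 259.7 CPM in spleen, and 449.5 and 472.2 CPM in lymph node. The spleen libraries lay on either side of the liver pair (log2 fold change -0.08, edgeR adjusted p = 0.665), and both lymph node libraries lay above all others. edgeR called Btg2 lower in liver (-0.68, SE 0.119, adjusted p = 2.63e-05) and in spleen (-0.60, SE 0.121, adjusted p = 0.000356) than in lymph node.

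Zc3h12a (ENSMUSG00000042677, chr4:125118423-125127840, minus strand) was sparse but steady. Liver held 15.5 and 16.3 CPM, spleen 16.6 and 15.9 CPM, and lymph node 27.3 CPM in each library, from 57 to 109 UMIs a library. The lymph node mean was 1.72-fold the liver mean. edgeR called it lower than in lymph node in liver (-0.84, SE 0.191, adjusted p = 0.000708) and in spleen (-0.73, SE 0.204, adjusted p = 0.0106). The call against spleen was lost whenever 1 spleen or lymph node library was left out (adjusted p of 0.0503 to 0.0654), with DESeq2 (0.0773) and in thinned cells (0.0981). Zc3h12d (ENSMUSG00000039981, chr10:7832470-7870396, plus strand) gave between 22 and 51 UMIs a library. It was at 7.24 and 5.78 CPM in liver, 7.28 and 6.15 CPM in spleen, and 9.99 and 8.28 CPM in lymph node. No difference was called for it (edgeR adjusted p = 0.140 for liver and 0.394 for spleen against lymph node).

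**Figure D1:**
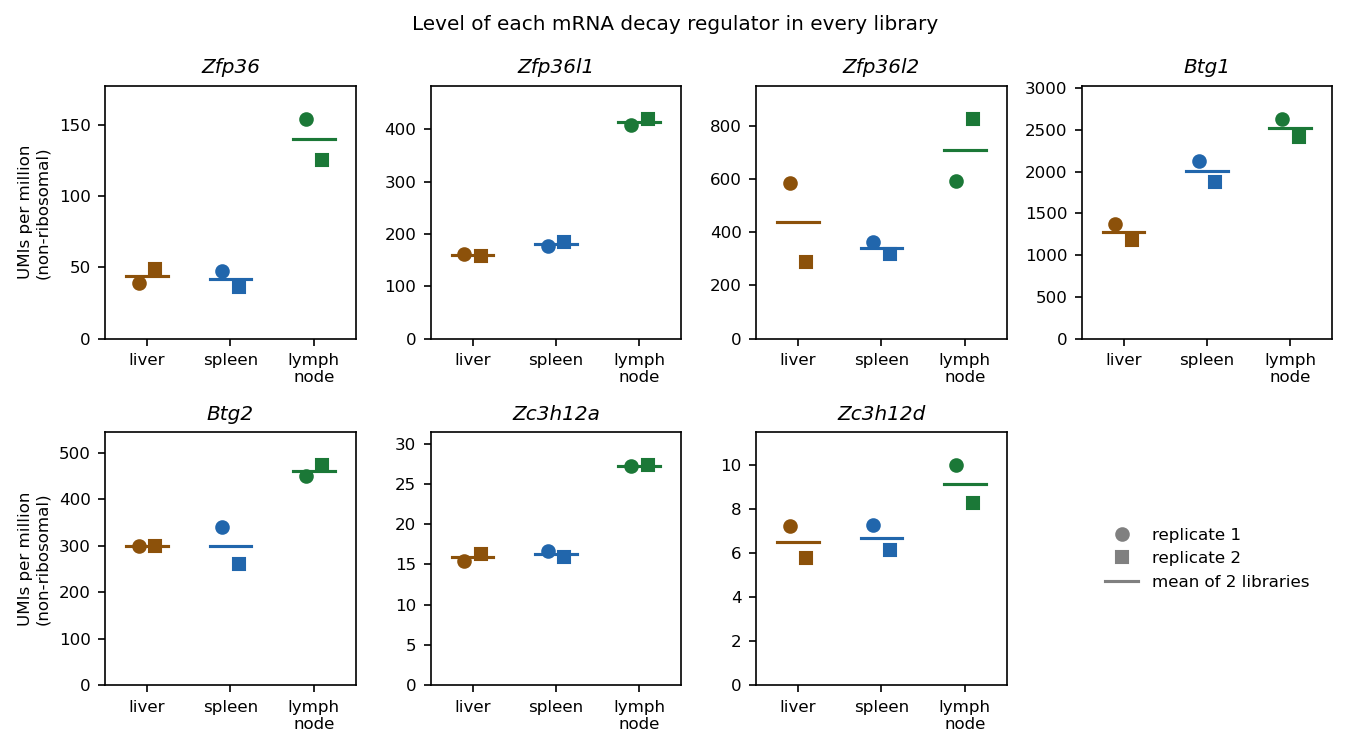
Level of each of the 7 members in every library, in UMIs per 1000000 UMIs with ribosomal and haemoglobin genes left out, on a linear axis. Points are libraries and bars are the organ means (n = 2). Both lymph node points lie above the other 4 for every member, by the narrowest margin for Zfp36l2 (591.0 against 584.7), and Btg1 also steps up from liver (1375 and 1180) to spleen (2130 and 1877).

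Both lymph node libraries were above the other 4 for 7 of 7 members, an order held by 18.4% of the 10249 genes tested. Between liver and lymph node edgeR called 5 of the 7 members, where 37.6% of all genes were called; all 5 were lower in liver, a direction called for 19.6% of genes. Between spleen and lymph node it called 4 of the 7, where 18.2% of all genes were called; all 4 were lower in spleen, a direction called for 10.3% of genes. Between liver and spleen it called 1 of the 7, where 25.9% of all genes were called. The median log2 fold change of the members was -0.84 for liver against lymph node and -0.73 for spleen against lymph node, while the median of all genes was 0.01 and 0.00. For liver against spleen the medians were -0.11 and 0.02. Each organ enters a pair of these comparisons, so their values are not independent of one another, and the part of sex, of immediate early genes and of cell make-up in the lymph node values was not tested by these sums.

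**Figure D2:**
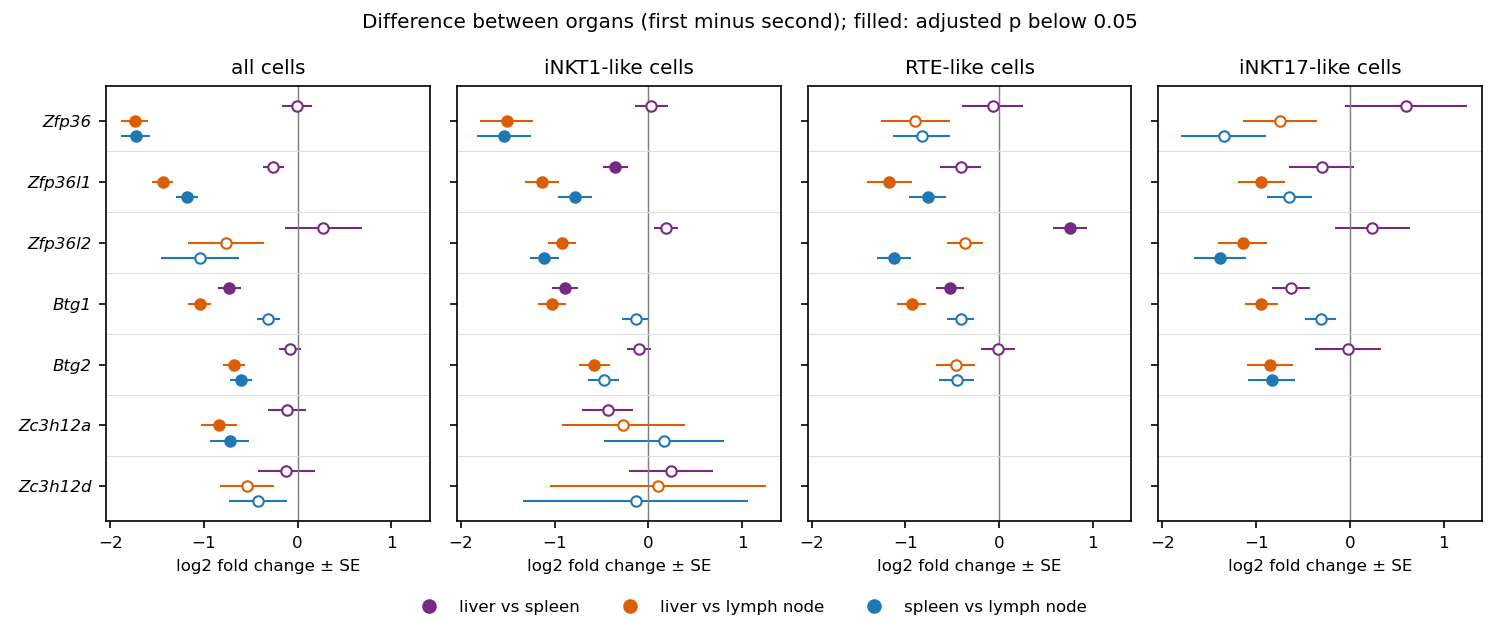
Log2 fold change of each member between organs from edgeR (organ named first over the other), with bars of 1 standard error, over UMIs summed per library (n = 2 libraries per organ). The panels show all cells and then iNKT1-like, RTE-like and iNKT17-like cells, which are classes described below. In the panel of all cells, Zfp36 and Zfp36l1 lie farthest below 0 against lymph node (-1.74 and -1.44 for liver). In that panel the wide bars belong to Zfp36l2 (SE 0.409 and 0.416), and Btg1 lies farthest from 0 between liver and spleen (-0.73).

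To hold the kind of cell fixed, cells of all libraries were clustered without the members, the immediate early genes, heat shock genes and sex-linked genes. Lymph node differed from the other organs in its mixture: 866 and 1014 cells of its libraries were iNKT17-like (Il23r and Aqp3 among their markers), against 22 to 47 cells in the other libraries. A further 1307 and 1287 lymph node cells fell in a cluster that stayed unnamed, led by Ccl1, Nrgn, Dusp1 and Pdcd1. iNKT1-like cells (Tbx21, Il2rb and Klr receptor markers) numbered 1878 to 2139 in each liver and spleen library but only 150 and 254 in lymph node. Most iNKT1-like cells of liver were in one cluster (2104 and 1792 cells) and most of spleen in another (1778 and 1854 cells), and lymph node cells were split over both. Cells like recent thymic emigrants (RTE-like, with Ccr7, S1pr1 and Klf2 markers) numbered 87 and 128 in the liver libraries, 502 and 434 in those of spleen and 161 and 136 in those of lymph node. Doublets were removed only by the upper limit of genes per cell.

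Within iNKT1-like cells edgeR called the 3 ZFP36 family genes lower in liver and in spleen than in lymph node, calls that were not made without lymph node replicate 2 (adjusted p from 0.224 to 0.730). Zfp36 was at 41.0 and 43.8 CPM in liver, 41.8 and 37.2 CPM in spleen, and 92.5 and 132 CPM in lymph node (edgeR adjusted p = 5.62e-06 and 1.48e-05 for liver and spleen against lymph node). Zfp36l1 was at 154 and 149, 182 and 186, and 245 and 375 CPM (adjusted p = 5.86e-08 and 0.00169, the latter 0.0738 without spleen replicate 1). It was also called lower in liver than in spleen here (-0.35, adjusted p = 0.0338), a call lost with DESeq2 (adjusted p = 0.141), without any 1 of the liver or spleen libraries, and with library totals as the only scaling. Zfp36l2 was at 653 and 327, 431 and 386, and 714 and 1032 CPM, the liver pair again apart. edgeR called it lower in liver (-0.92, adjusted p = 7.19e-08) and in spleen (-1.11, adjusted p = 1.12e-10) than in lymph node, calls it did not have in all cells. The call against liver was also lost with library totals (adjusted p = 0.422), at a finer clustering (0.269) and with the left-out genes kept in the clustering (0.604), and so was that against spleen (0.440, 0.313 and 0.557).

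Btg1 was again lowest in liver among iNKT1-like cells. It was at 1449 and 1236 CPM in liver, 2520 and 2238 CPM in spleen, and 2637 and 2629 CPM in lymph node. It was lower in liver than in either spleen (-0.89, edgeR adjusted p = 9.01e-09) or lymph node (-1.03, adjusted p = 3.35e-10), while spleen and lymph node were close (-0.14). Btg2 was at 330 and 329, 383 and 291, and 403 and 525 CPM, and was called only against liver (-0.58, adjusted p = 0.00966), a call lost with DESeq2 (0.0560) and with the left-out genes kept in the clustering (-0.13, adjusted p = 0.799). In all, edgeR called 2 of 7 members for liver against spleen in iNKT1-like cells (23.5% of genes called), 5 for liver against lymph node (7.77% of genes) and 3 for spleen against lymph node (2.47% of genes). These counts against lymph node leaned on lymph node replicate 2, and so did those of all genes. Without it, Btg1 against liver was the only member call left, and far fewer of all genes were called for either organ. The shares above thus do not apply to that fit, in which lymph node replicate 1 stood alone with 150 iNKT1-like cells. Immediate early genes were highest in lymph node inside the class too, at 874 and 890 CPM in liver, 1752 and 1456 CPM in spleen, and 6610 and 8133 CPM in lymph node. Their part in the values of the members was not tested.

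Among RTE-like cells, Zfp36l1 was at 142 and 121 CPM in liver, 158 and 187 CPM in spleen, and 267 and 305 CPM in lymph node. edgeR called it lower in liver (-1.17, adjusted p = 0.00231) and in spleen (-0.76, adjusted p = 0.0287) than in lymph node; the call against spleen was lost with DESeq2 (adjusted p = 0.284), without a filter on low counts and without spleen replicate 1 or either lymph node library. Btg1 was lower in liver (1225 and 917 CPM) than in spleen (1504 and 1520 CPM; -0.52, adjusted p = 0.0344) and than in lymph node (2006 and 1888 CPM; -0.93, adjusted p = 0.000230). Zfp36l2 took another order in these cells, with 496 and 342 CPM in liver, 253 and 231 CPM in spleen and 435 and 609 CPM in lymph node. It was called higher in liver than in spleen (0.76, adjusted p = 0.0141) and lower in spleen than in lymph node (-1.12, adjusted p = 0.000247). Neither call between liver and spleen was made by DESeq2 (adjusted p = 0.0594 for Zfp36l2 and 0.0583 for Btg1), the first was lost without liver replicate 1 (0.274), and the other without liver replicate 2 (0.266) or spleen replicate 2 (0.103). Zfp36 was at 51.8 and 49.9 CPM in liver, 61.6 and 42.7 CPM in spleen, and 90.2 and 91.4 CPM in lymph node, from 12 to 58 UMIs a library, and was not called against lymph node (edgeR adjusted p = 0.150 for liver and 0.192 for spleen). Btg2 was not called either (0.195 and 0.266). In each pair of organs 2 of the 5 members tested were thus called, where the share of all genes called was 7.07% for liver against spleen, 7.96% for liver against lymph node and 2.81% for spleen against lymph node.

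iNKT17-like cells were few outside lymph node (22 and 34 in liver, 47 and 33 in spleen), so their values there are coarse. Zfp36l2 was at 291 and 203 CPM in liver, 274 and 141 CPM in spleen, and 418 and 676 CPM in lymph node, and edgeR called it lower in liver (-1.14, adjusted p = 0.000572) and in spleen (-1.38, adjusted p = 0.000214). Btg2 was at 202 and 318, 345 and 176, and 461 and 478 CPM, and was called lower in liver (-0.85, adjusted p = 0.00820) and in spleen (-0.83, adjusted p = 0.0269) than in lymph node. Zfp36l1 (-0.95, adjusted p = 0.00334) and Btg1 (-0.94, adjusted p = 1.06e-05) were called only between liver and lymph node. DESeq2 did not call Zfp36l2 (0.0514) or Btg2 (0.0883) against liver, nor Btg2 against spleen (0.234). Leaving out lymph node replicate 2 ended the calls of Zfp36l2 and Btg2 against both organs, and leaving out liver replicate 1 ended those of Zfp36l1 (0.303) and Btg2 (0.342) against liver. The call of Btg2 against spleen was also lost without spleen replicate 2 (0.490) or lymph node replicate 1 (0.127). Zfp36 was at 88.4 and 76.3, 59.5 and 52.9, and 153 and 125 CPM, from 3 to 7 UMIs a library outside lymph node, and was not called for liver (edgeR adjusted p = 0.186) or spleen (0.0633) against lymph node. Of 5 members tested, 4 were called for liver against lymph node (17.1% of genes), 2 for spleen against lymph node (5.26% of genes) and 0 for liver against spleen (3.34% of genes). In that last pair 1 member, Btg1, had an unadjusted edgeR p under 0.05 (-0.63, adjusted p = 0.0569), and DESeq2 called 0.

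The organ effects of the classes were also compared directly, through a class by organ interaction term in a fit that kept each library as a block. The difference between liver and spleen in Zfp36l2 was 0.54 more positive on the log2 scale in RTE-like than in iNKT1-like cells (SE 0.149, edgeR adjusted p = 0.0472), and it was 1 of 59 genes called of 7156. Btg1 came next, at 0.29 (adjusted p = 0.175). No other interaction of a member with organ passed the test for RTE-like cells, where the nearest was Zfp36l2 between liver and lymph node (0.51, adjusted p = 0.222). For iNKT17-like against iNKT1-like cells no member was called in any pair, with adjusted p values from 0.811 upward.

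Across 7 named classes, both lymph node libraries were above the other 4 in all 7 classes for Zfp36 (called in iNKT1-like cells but not in RTE-like or iNKT17-like cells) and Zfp36l1, in 6 for Zfp36l2 and Btg2, in 4 for Btg1, in 3 for Zc3h12a and in 0 for Zc3h12d. By class, this order was held by 5 members in iNKT1-like cells (12.4% of genes), 4 in iNKT17-like cells (12.1%), 5 in RTE-like cells (8.57%), 6 in NF-kB-like cells (8.11%), 4 in Gzma-like cells (6.87%), 4 in cycling cells (7.92%) and 5 in cells with an interferon response, called Ifit-like (8.04%). Lymph node libraries held as few as 12 Gzma-like and 22 NF-kB-like cells, so single values there rest on few UMIs. Cycling cells had the lowest Btg1 of any class, at 453 to 888 CPM over the libraries against 1236 to 2637 CPM in iNKT1-like cells. Their Btg2 was also low, at 93.9 to 203 CPM against 291 to 525 CPM. NF-kB-like cells of lymph node had the highest Btg1, at 3224 and 4823 CPM from 23 and 22 cells, and Zfp36l1 at 604 and 859 CPM. In the unnamed lymph node cluster, Zfp36 was at 166 and 137 CPM, Zfp36l1 at 424 CPM in both libraries and Zfp36l2 at 765 and 1009 CPM.

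**Figure D3:**
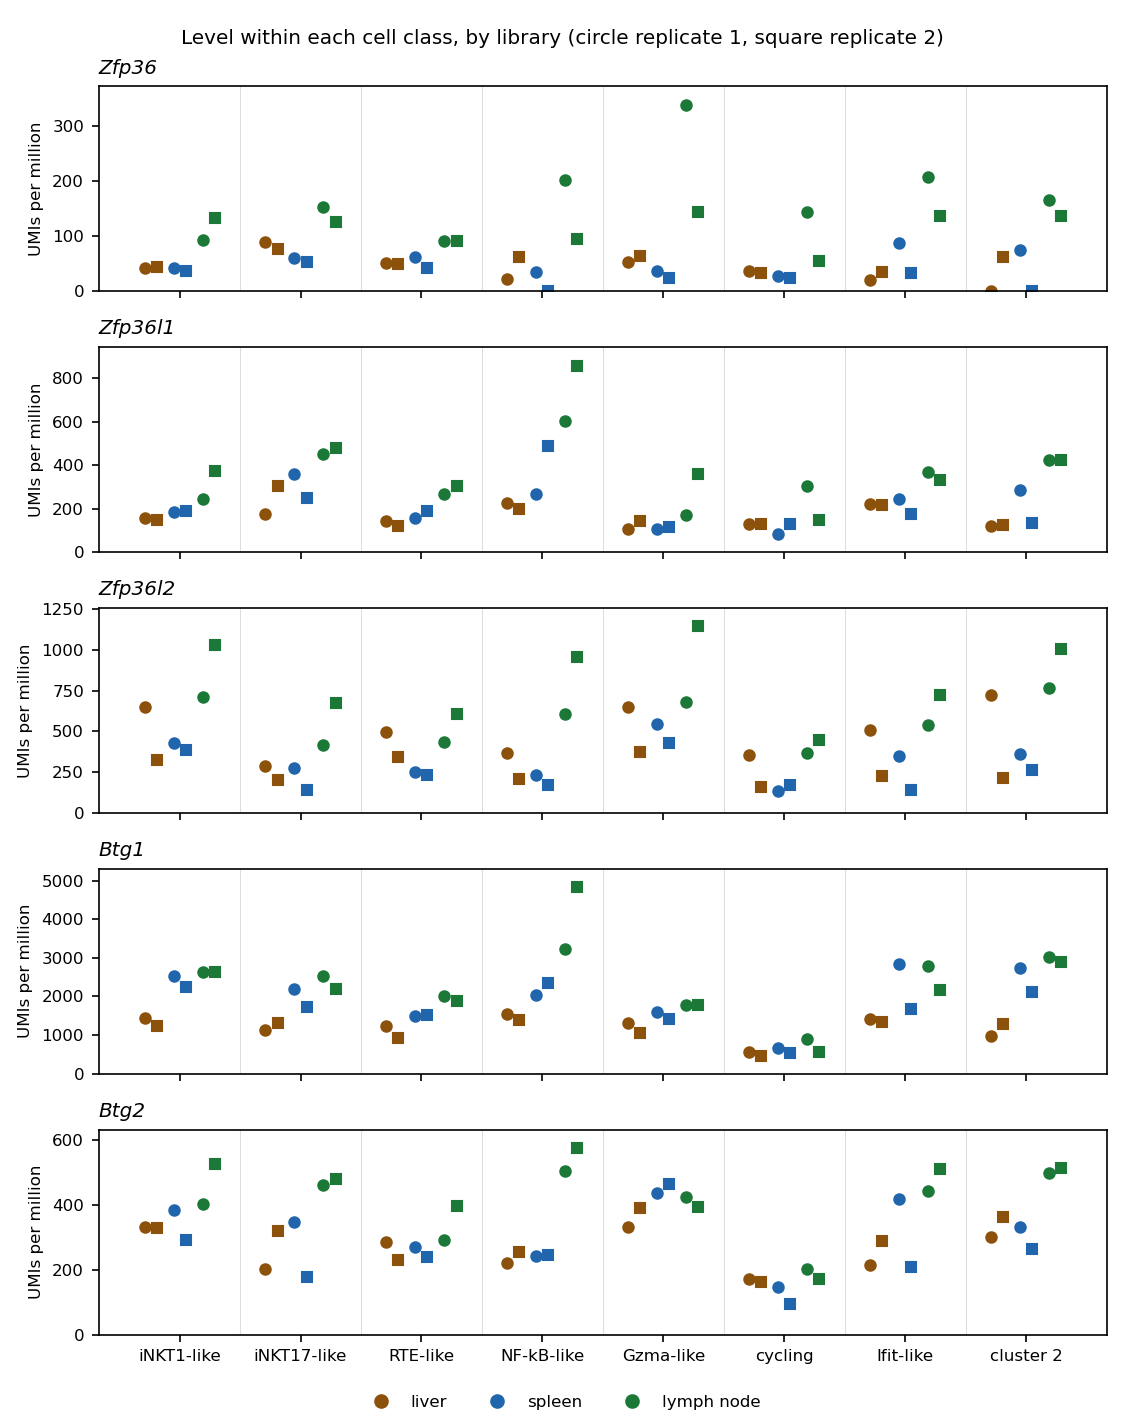
Level of members in each cell class and library, in UMIs per 1000000 UMIs of that class on a linear axis. Points are libraries, coloured by organ. Lymph node points are uppermost in every named class for Zfp36 and Zfp36l1, and cycling cells hold the lowest Btg1 (453 to 888).

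Because immediate early genes were so high in lymph node, cells were also grouped by the UMIs of these 10 genes left after thinning to 1000 UMIs per cell. Cells with none numbered 1640 and 1594 in liver, 855 and 1010 in spleen, but only 113 and 115 in lymph node. Cells with 4 or more numbered 1557 and 1626 in lymph node, 132 and 79 in spleen and 25 in liver replicate 2, with too few in liver replicate 1. The members fell into different patterns over these groups. Btg2 was higher in the group with 4 or more than in the group with none in all 5 libraries that had both. It went from 283 to 592 and from 216 to 593 CPM in lymph node, with 23 and 19 UMIs in the group with none. In spleen it went from 302 to 439 and from 248 to 382 CPM, with 42 and 22 UMIs in the group with 4 or more. In liver replicate 2 it went from 293 to 632 CPM, the latter from 11 UMIs. Btg1 went from 1610 to 3236 and from 1477 to 2946 CPM in lymph node and from 2168 to 3030 and from 1940 to 3233 CPM in spleen, while liver replicate 2 gave 1186 and 1149 CPM. Zfp36 went from 98.3 to 191 and from 45.4 to 140 CPM in lymph node, from 8 and 4 UMIs in the group with none. In the group with 4 or more it had 1 and 3 UMIs in spleen (10.4 and 52.1 CPM) and 2 UMIs in liver replicate 2 (115 CPM), too few to read a direction. Zfp36l2 went from 369 to 725 and from 738 to 1008 CPM in lymph node and from 372 to 491 and from 318 to 504 CPM in spleen, against 287 and 230 CPM in liver replicate 2, the latter from 4 UMIs. Zfp36l1 varied less, from 295 to 436 and from 352 to 477 CPM in lymph node, from 180 to 209 and 186 to 156 CPM in spleen, and from 165 to 172 CPM (3 UMIs) in liver replicate 2.

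In cells with no immediate early UMI, Zfp36l1 was at 295 and 352 CPM in lymph node, from 24 and 31 UMIs, against 157 to 186 CPM in the other 4 libraries. That order was held by 13.3% of genes in these cells, and by no other member. Zfp36l2 was at 369 and 738 CPM in lymph node and at 567 CPM in liver replicate 1. In the same cells Zfp36 was at 98.3 and 45.4 CPM in lymph node, from only 8 and 4 UMIs, and 26.4 to 47.6 CPM elsewhere, so that at this depth its order was not settled. In these cells Btg1 was at 1610 and 1477 CPM in lymph node, from 131 and 130 UMIs, below both spleen libraries. Btg2 was at 283 and 216 CPM in lymph node, from only 23 and 19 UMIs, against 248 to 302 CPM elsewhere, so its order was not settled either. These groups of cells are a description within libraries, with no test.

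**Figure D4:**
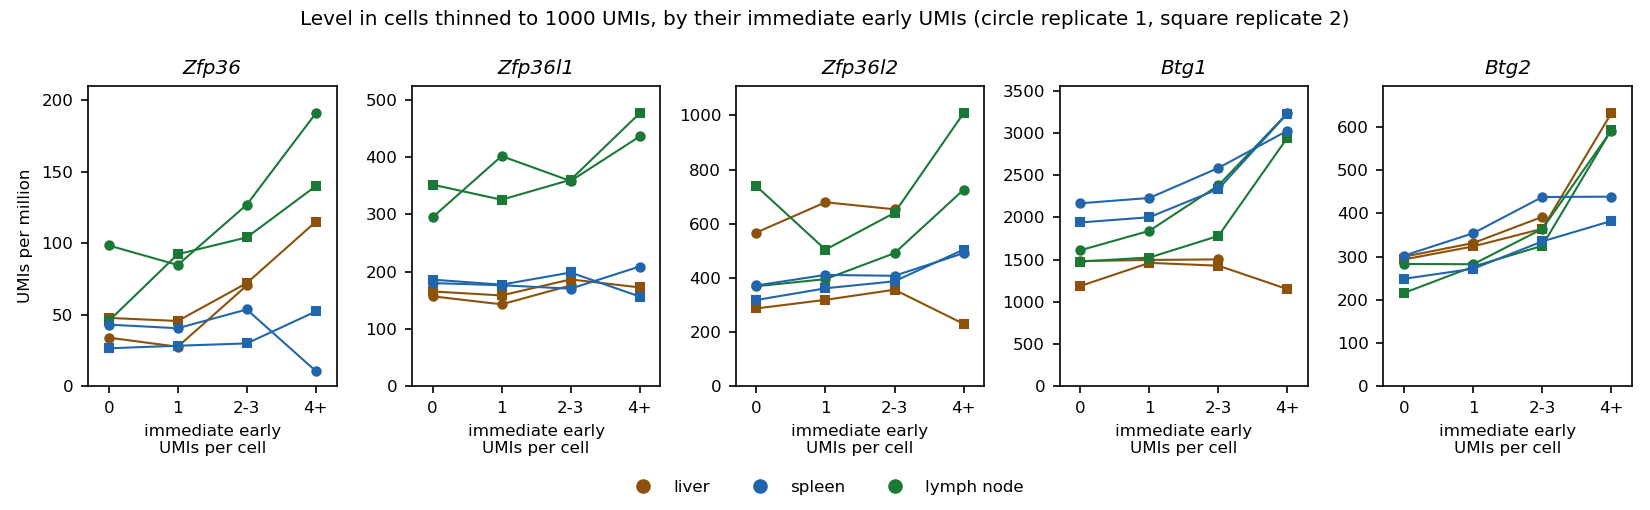
Level of members in cells grouped by their number of immediate early UMIs after thinning to 1000 UMIs per cell, in UMIs per 1000000 UMIs on a linear axis. Lines join the groups of 1 library, coloured by organ. Btg2 goes in the lymph node libraries from 283 and 216 to 592 and 593, whereas the lymph node lines of Zfp36l1 start above those of the other organs (295 and 352 against 157 to 186).

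Profiles of the members over 30 combinations of class and library were set beside those of 5946 genes by Pearson's r of log2(CPM + 1), as a description over points that share libraries and depth. The genes most like Zfp36 were Kdm6b (0.84), Fos (0.83) and Ppp1r15a (0.83). Zfp36l1 was nearest to Clint1 (0.88), Ppp1r16b (0.84) and Cebpb (0.82), and Zfp36l2 to Pnrc1 (0.81), Bbc3 (0.78) and Pld3 (0.78). Btg1 was nearest to Ahcyl2 (0.88), Malat1 (0.86) and Rbm39 (0.84), and Btg2 to Tgoln1 (0.88), Pld3 (0.86) and Malat1 (0.85). Between members the closest pairs were Btg1 with Btg2 (0.81), Zfp36 with Zfp36l1 (0.72) and Zfp36l2 with Btg2 (0.71).

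Genes of the decay machinery were counted in the same fits, in which 25.9% of all genes were called for liver against spleen, 37.6% for liver against lymph node and 18.2% for spleen against lymph node. Of 15 tested genes of CCR4-NOT and its BTG/TOB partners, edgeR called 5 for liver against spleen (2 higher and 3 lower in liver), 5 for liver against lymph node (2 higher, 3 lower in liver) and 3 for spleen against lymph node (1 higher, 2 lower in spleen). With DESeq2 these counts were 2, 3 and 2. Tob1, a relative of the BTG proteins, took the steps of Btg1: 66.2 and 54.5 CPM in liver, 101.4 and 91.1 CPM in spleen, and 132.9 and 135.2 CPM in lymph node (edgeR adjusted p = 4.28e-05, 1.28e-09 and 0.00728 for the 3 pairs). Tob2 was at 49.6 and 46.7, 32.5 and 29.6, and 76.7 and 82.2 CPM, highest in lymph node and lowest in spleen. Cnot7, the deadenylase that BTG proteins bind, was at 54.7 and 45.9 CPM in liver and 74.5 and 83.3 CPM in lymph node (-0.71, adjusted p = 7.51e-05). The scaffold Cnot1 went the other way, at 61.6 and 52.7 CPM in liver and 40.8 and 37.0 CPM in lymph node (0.49, adjusted p = 0.00701).

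Downstream of deadenylation, 9 of 16 tested genes of decapping and 5′ decay were called for liver against spleen (1 higher, 8 lower in liver), 5 for liver against lymph node (2 higher, 3 lower) and 3 for spleen against lymph node (all higher in spleen). DESeq2 called 3, 4 and 2 of them. The decapping cofactor Dcp1b was at 37.4 and 27.9 CPM in liver, 38.2 and 39.7 CPM in spleen, and 17.6 and 13.5 CPM in lymph node (edgeR adjusted p = 8.71e-05 and 4.10e-06 against lymph node). The exonuclease Xrn1 was also lower in lymph node, at 40.2 and 41.7 CPM against 55.5 to 73.8 CPM elsewhere. Of 13 tested exosome genes, the 3′ to 5′ decay complex, 5 were lower in liver than in spleen, 5 were higher in spleen than in lymph node, and 0 were called between liver and lymph node (2 at an unadjusted edgeR p under 0.05). With DESeq2 the counts were 4, 2 and 0. Among 8 genes of the poly(A) tail, 2 were called for liver against spleen, 2 for liver against lymph node and 1 for spleen against lymph node (0, 2 and 1 with DESeq2). Pan3, a subunit of a poly(A) nuclease, was at 66.1 to 79.4 CPM in liver and spleen and at 108.3 and 116.1 CPM in lymph node.

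Of 15 tested genes for other RNA-binding regulators of decay, 2 were called for liver against spleen (both higher in liver), 7 for liver against lymph node (5 higher, 2 lower in liver) and 3 for spleen against lymph node (all lower in spleen). DESeq2 called 0, 4 and 0 of them. Malt1, the protease of Regnase-1, was at 18.9 and 18.2 CPM in liver and 9.99 and 7.72 CPM in lymph node (1.00, edgeR adjusted p = 0.000977). Elavl1 (HuR), which stabilises AU-rich mRNAs, was at 205.9 and 190.6 CPM in liver, 224.5 and 229.8 CPM in spleen, and 263.4 and 312.5 CPM in lymph node. Arid5a, which protects mRNAs from Regnase-1, was at 33.8 to 40.1 CPM in liver and spleen and at 53.2 and 53.0 CPM in lymph node. The median log2 fold changes of these 5 lists lay between 0.0033 and 0.24 for liver against lymph node and between -0.055 and 0.19 for spleen against lymph node, where those of the 7 members were -0.84 and -0.73.

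Known targets of the members did not share one direction. Of 10 tested mRNAs known for AU-rich control, 5 were called for liver against spleen (3 higher, 2 lower in liver), 7 for liver against lymph node (3 higher, 4 lower in liver) and 6 for spleen against lymph node (1 higher, 5 lower in spleen), where 25.9%, 37.6% and 18.2% of all genes were called. DESeq2 called 4, 4 and 2 of them. Fos was at 13.1 and 8.42 CPM in liver, 26.2 and 22.1 CPM in spleen, and 558.3 and 582.8 CPM in lymph node. Ifng was at 105.7 and 160.2 CPM in liver, 73.5 and 55.6 CPM in spleen, and 125.1 and 106.5 CPM in lymph node, lower in spleen than in either. Csf2 went the other way from Fos, at 20.6 and 30.6 CPM in liver against 10.8 and 12.4 CPM in lymph node (1.07, edgeR adjusted p = 0.000326). Il17a had no UMI in liver or spleen and 8.37 and 3.59 CPM in lymph node, where iNKT17-like cells were most frequent. Of these 10 mRNAs, 9 held at least 1 TATTTAT motif and 8 held 3 or more.

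Of 6 tested Regnase-1 targets, 5 were called between liver and spleen (3 higher, 2 lower in liver) and 4 in each comparison with lymph node, all of them higher in lymph node (4 in each of the 3 comparisons with DESeq2). Of all genes, 25.9% were called for liver against spleen, and the direction of these 4 was called for 19.6% of genes against liver and 10.3% against spleen. Icos, a costimulatory receptor, was at 322.2 and 312.1 CPM in liver, 381.5 and 407.2 CPM in spleen, and 859.8 and 958.3 CPM in lymph node (edgeR adjusted p = 8.03e-13 and 1.35e-09). Nfkbid was at 59.4 and 65.4, 38.5 and 39.7, and 108.0 and 88.3 CPM. Nfkbiz was at 44.9 and 36.0, 24.4 and 22.1, and 58.3 and 52.1 CPM.

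All mRNAs with the motif were also counted, whatever their name. Of 346 tested mRNAs with 3 or more TATTTAT motifs, 39.6% were called between liver and lymph node (15.6% higher and 23.99% lower in liver), against 37.6% of 6964 mRNAs with no motif (18.3% higher and 19.2% lower). Between spleen and lymph node 20.5% were called (5.78% higher and 14.7% lower in spleen), against 17.9% (7.96% higher and 9.99% lower). Between liver and spleen 25.1% were called (13.0% higher and 12.1% lower in liver), against 26.2% (13.1% higher and 13.0% lower). The difference in these shares was not tested. Median log2 fold changes of the mRNAs with 3 or more motifs were -0.02, -0.05 and 0.06 in that order, beside 0.01, 0.01 and 0.02 for mRNAs without one. Zfp36, Zfp36l1 and Zfp36l2 are themselves among these 346 mRNAs.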

How the data were processed

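Per the labels, the libraries were prepared with v2 chemistry of the Chromium 3′ kit (10x Genomics) and processed by the authors with Cell Ranger 3.1.0 (build mm10) and Seurat. The deposited matrices hold raw UMI counts per gene and barcode, not normalized; the deposited gene and barcode lists hold identifiers and no other measured values. Barcodes with 300 to 4000 genes and at most 15% mitochondrial UMIs were kept (55 removed), limits taken from the study's methods. The study's further step, leaving out cells with both Xist and Y-linked UMIs, removed 0 cells here, and the study states fewer cells than remained. UMIs were summed per library, or per library and class (at least 10 cells), without 112 ribosomal and haemoglobin genes (23.8% to 35.2% of UMIs). Organs were compared in pairs in 1 fit of 6 libraries (edgeR 4.0.16, R 4.3.3; minimum count 10 in filterByExpr, TMM, robust glmQLFit, glmQLFTest); calls were made at adjusted p (Benjamini-Hochberg) below 0.05. Classes came from scanpy 1.11.5 and leidenalg 0.10.2 (3000 variable genes, 20 components, 20 neighbours, resolution 0.5). A cluster took a class name where its markers had a median log2 fold of at least 1 and 3 or more were 2-fold up, and was otherwise called iNKT1-like if that list's median was above 0. Class names are thus not the study's own.

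All 7 members were named, with at most 4 called genes of largest change per list and pair. The members, lists and naming thresholds were chosen with earlier results of these data known. Sequences came from GENCODE vM21 and RefSeq. Total depth was 4768016 to 11086603 UMIs per library; UMIs are not corrected for capture, and intervals cover counting error only. Scripts were tested on simulated counts. DESeq2 1.42.0, other scalings, no filter, thinned cells, other clusterings, a replicate block and leaving out each library were tried as alternatives. List symbols Cnot9, Exosc6, Tut4 and Tut7 were not matched.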

Additional observations from a re-analysis of the deposited data

Results flagged for a closer look

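One result was picked out because an organ effect differed between classes of cells by a test of the difference itself. For Zfp36l2, the log2 difference between liver and spleen was 0.54 larger in RTE-like than in iNKT1-like cells (SE 0.149, edgeR adjusted p = 0.0472 over 7156 genes). RTE-like cells held 496 and 342 CPM in liver and 253 and 231 CPM in spleen, and iNKT1-like cells 653 and 327 CPM and 431 and 386 CPM. The liver libraries of both classes were apart in the same direction, and library was a block in this fit.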

How the results depend on the processing

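With 2 libraries per organ, depth limited Zc3h12a and Zc3h12d (22 to 109 UMIs a library) and the classes with few cells. The calls in all cells of Zfp36, Zfp36l1 and Btg2 against lymph node, of Zc3h12a for liver against lymph node, and of Btg1 for liver against both other organs held under every alternative run there. With DESeq2, 1 member was called for liver against spleen in iNKT1-like cells, where all genes called fell to 875 from 2187. In RTE-like cells 0 members were called for liver against spleen (all genes 76, from 324). For spleen against lymph node 1 was called there (all genes 69, from 129). In iNKT17-like cells 2 members were called for liver against lymph node (all genes 137, from 312). For spleen against lymph node 1 was called in that class (all genes 38, from 96). All genes called in all cells fell to 1452 (liver against spleen) and 1139 (spleen against lymph node), from 2653 and 1869. Thinned cells gave 1571 genes for liver against spleen. With library totals as the only scaling, chosen after seeing the data, 1 member was called between liver and spleen in iNKT1-like and 1 in iNKT17-like cells (also 1 with RLE factors), and the split between liver and spleen in all cells became 1655 genes higher and 978 lower in liver, from 1312 and 1341, with the median of all genes at 0.10. Without a filter, 1 RTE-like member was called between spleen and lymph node. Clustering with the left-out genes kept gave 3 iNKT1-like members between liver and lymph node, and no RTE-like sums in liver and spleen.

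Leaving out each library gave these ranges of members called for liver against spleen, liver against lymph node and spleen against lymph node: 1 to 2, 5 to 6 and 3 to 6 in all cells, 1 to 2, 1 to 5 and 0 to 3 in iNKT1-like cells, 1 to 2, 2 to 2 and 1 to 2 in RTE-like cells, and 0 to 1, 2 to 4 and 0 to 2 in iNKT17-like cells. Genes called in all cells ranged from 1386 to 2422, from 2400 to 4052 and from 1015 to 1952; the lowest of the latter pair came without lymph node replicate 2.

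Same-numbered libraries deviated together only weakly (correlations of 0.099, 0.084 and 0.076 over 10249 genes), so the numbers were not taken to pair them. With a replicate block 2 members were called for liver against spleen in all cells (Zfp36l1 gained, edgeR adjusted p = 0.0488). For spleen against lymph node 5 were called (Btg1 gained, 0.0234), and all genes called in all cells numbered 3068, 4173 and 2141. In iNKT17-like cells 1 member was called between liver and spleen. Zfp36l2 in iNKT1-like cells had adjusted p = 0.0613 and 0.0712 (edgeR) for liver and spleen against lymph node. Btg2 was gained in that class for spleen against lymph node (edgeR adjusted p = 0.0427).

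Directions turned for the following values, none of them called with all libraries. No value with the turned sign was called. For Zfp36l2 between liver and spleen, the positive ends of 2 ranges (0.69 and 0.59, without liver replicate 2) kept the direction and were called, and the negative ends (without liver replicate 1) were not. Between liver and spleen in all cells, Zfp36 became 0.068 (library totals), 0.031 (no filter) and 0.22 (thinned), and leaving out libraries gave ranges of -0.19 to 0.19 (Zfp36), -0.27 to 0.69 (Zfp36l2), -0.23 to 0.11 (Btg2) and -0.25 to 0.013 (Zc3h12d). In iNKT1-like cells these ranges were -0.047 to 0.10 (Zfp36), -0.38 to 0.59 (Zfp36l2), -0.28 to 0.061 (Btg2) and -0.048 to 0.51 (Zc3h12d) between liver and spleen, -0.52 to 0.035 (Zc3h12a) and -0.15 to 0.40 (Zc3h12d) against lymph node for liver, and -0.069 to 0.49 and -0.37 to 0.18 for spleen. Clustering with the left-out genes kept gave 0.25 (Zc3h12a) and -0.36 (Zc3h12d) for liver and 0.13 (Btg1) and 0.015 (Btg2) for spleen, and a resolution of 1 gave -0.34 (Zc3h12d, liver) and -0.24 (Zc3h12a, spleen). In RTE-like cells between liver and spleen, Btg2 became 0.018 (library totals) and 0.012 (resolution 1), with ranges of -0.16 to 0.10 (Btg2) and -0.30 to 0.19 (Zfp36). In iNKT17-like cells the ranges were -0.80 to 0.033 (Zfp36l1), -0.11 to 0.82 (Zfp36l2) and -0.43 to 0.57 (Btg2), and Btg2 became 0.074 with the left-out genes kept. The causes were not tested.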

Other observations

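Genes known for keeping T cells at rest, a list that also holds Tob1, were set beside the BTG genes. Of 8 tested, edgeR called 6 for liver against spleen (2 higher and 4 lower in liver), 4 for liver against lymph node (1 higher, 3 lower) and 5 for spleen against lymph node (1 higher, 4 lower in spleen), where 25.9%, 37.6% and 18.2% of all genes were called. With DESeq2 the counts were 6, 4 and 4. Il7r, the receptor for the survival cytokine IL-7, took the same 3 steps as Btg1, at 275.1 and 264.7 CPM in liver, 603.4 and 509.5 CPM in spleen, and 1100 and 1135 CPM in lymph node. Tcf7, a transcription factor of early and memory T cells, was at 78.5 and 54.0, 120.8 and 108.2, and 159.6 and 161.6 CPM. Klf2, a factor of T cell quiescence and egress, was instead highest in spleen, at 344.6 and 306.3 CPM against 139.6 to 181.2 CPM in the other libraries.

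Heat shock genes, which respond to cell stress, were taken as a further list. Of 6 tested, 6 were called higher in liver than in spleen, 4 were called lower in spleen than in lymph node, and 4 were called for liver against lymph node (2 higher and 2 lower in liver), where 25.9%, 18.2% and 37.6% of all genes were called. With DESeq2 the counts were 5, 4 and 3. Hspa1a was at 32.7 and 38.8 CPM in liver, 0.520 and 0.280 CPM in spleen, and 45.9 and 47.4 CPM in lymph node.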
